A study of Caenorhabditis elegans with 6 samples.

Results

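The 10 genes described here serve the making and uptake of yolk in *C. elegans*: the vitellogenin genes *vit-1* to *vit-6*, the yolk receptor gene *rme-2*, and *unc-62*, *ceh-60* and *mab-3*, which encode transcription factors that act on the *vit* genes in the intestine. They were taken by gene symbol from the 46778 genes listed in each library, and all 10 were found. RNA was sequenced from whole young adults grown at one temperature without starvation, in 3 libraries of *vhl-1* mutants and 3 libraries of wild type animals, each from its own biological replicate. The study's strain list gives the mutant as *vhl-1(ok161)*, so that the genotype rests on 1 allele in every tissue, and the wild type as N2. VHL-1 is the worm counterpart of the VHL tumor suppressor, which marks the hypoxia-inducible factor HIF-1 for degradation, and the comparison asks which transcripts change when it is lost. The libraries held between 52462303 and 82910026 reads on genes. *vhl-1* itself had 7, 3 and 1 reads in the mutant libraries and 501, 442 and 373 reads in the wild type libraries, which matches the labels. Each library was scaled with the TMM method of edgeR, and a level is given as CPM, the reads of a gene scaled to the size of its library.

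Yolk is a store of lipoprotein that the mother supplies to the embryo. In *C. elegans* the vitellogenins are made by the intestine of the adult hermaphrodite, secreted into the body cavity and taken into growing oocytes by RME-2, a member of the LDL receptor family. *vit-1* to *vit-5* encode the large yolk protein, and *vit-6* encodes a precursor that is cleaved into the smaller yolk proteins. UNC-62, a homeodomain protein of the Meis class, and CEH-60, its partner of the PBX class, promote transcription of *vit* genes. MAB-3, a DM domain protein related to Doublesex of *Drosophila*, represses them in the male intestine.

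On WBcel235, *vit-3* (WBGene00006927) lies on the minus strand of chromosome X from 3567355 to 3572549, and *vit-4* (WBGene00006928) lies on the same strand from 3558769 to 3563965. Only 3389 bp and no other annotated gene lie between these neighbors. *vit-5* (WBGene00006929) lies on the plus strand of X from 3403471 to 3408603, *vit-2* (WBGene00006926) on the plus strand from 5101042 to 5106169 and *vit-1* (WBGene00006925) on the plus strand from 7727889 to 7733168. *vit-6* (WBGene00006930) is the member on another chromosome, IV, from 8261157 to 8266459 on the plus strand. The 6 genes are alike in build, with 5 or 6 exons each and merged exons of between 4870 and 5088 bp. Their proteins are alike in length too, with 1603 amino acids for each of *vit-3*, *vit-4* and *vit-5*, 1616 for *vit-1*, 1613 for *vit-2* and 1651 for *vit-6*. How the counting treated reads that fit several genes is not given in the sources used here, so reads of the related *vit* genes could have been divided or left out. *rme-2* (WBGene00004374) lies on chromosome IV from 5470026 to 5473174, *unc-62* (WBGene00006796) on V from 4497461 to 4511449 with 18 annotated transcripts, *ceh-60* (WBGene00017690) on X from 6522596 to 6530146 and *mab-3* (WBGene00003100) on II from 9732137 to 9738035. Exons of *ceh-60* share 72 bp, or 5.41% of their length, with *ets-4* on the opposite strand, which had up to 9079 reads in a library. The strand setting of the counting is not given in the sources used here, so reads of the shared stretch could have been counted for either gene or left out.

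All 6 *vit* genes had a lower mean level in *vhl-1* mutants, at between 21.5% and 40.4% of the wild type mean, but the libraries of 1 genotype differed so widely that none of the 6 differences passed the test across all genes. The 6 genes together had 6354, 796 and 3213 CPM in the 3 *vhl-1* libraries, against 17321, 5682 and 4879 CPM in the 3 wild type libraries. They took 0.646%, 0.0793% and 0.328% of all reads on genes in *vhl-1* mutants and 1.74%, 0.573% and 0.463% in wild type animals. The first wild type library stood far above the others and the second *vhl-1* library far below them, and the first *vhl-1* library lay among the wild type libraries. The summed level averaged 3454 ± 2787 CPM in *vhl-1* mutants and 9294 ± 6964 CPM in wild type animals (SD, n = 3 each). The highest library held 7.99 times the lowest in *vhl-1* mutants and 3.55 times the lowest in wild type animals.

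**Figure D1:**
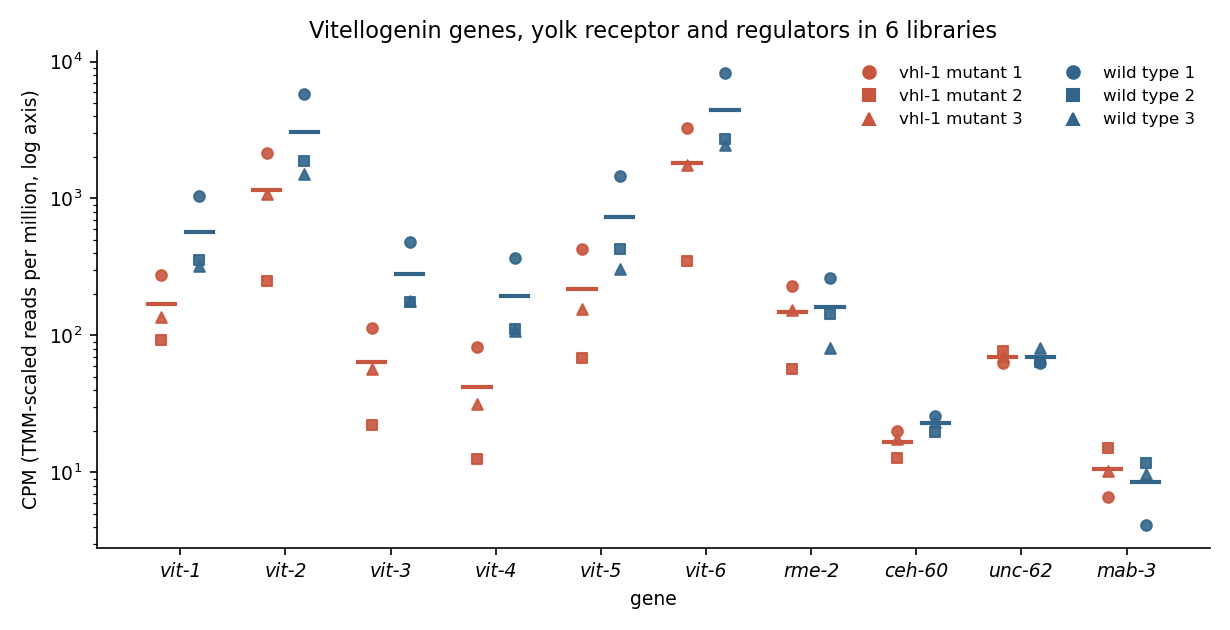
Level of each of the 10 genes in every library, as CPM on a log axis, with *vhl-1* mutants (red) left of wild type animals (blue). Points are libraries, shaped by replicate number, and bars are means of 3 libraries; for *vit-1*, *vit-3* and *vit-4* the red points all lie below the blue ones, while for the other 7 genes the colors overlap.

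*vit-1* had 275, 92.9 and 136 CPM in *vhl-1* mutants, against 1040, 355 and 322 CPM in wild type animals. *vit-3* had 114, 22.1 and 56.5 CPM in *vhl-1* mutants, against 481, 175 and 180 CPM in wild type animals. *vit-4* had 82.1, 12.4 and 31.5 CPM in *vhl-1* mutants, against 366, 112 and 108 CPM in wild type animals. In these 3 genes every *vhl-1* library lay below every wild type library, with mean levels at 29.4% of wild type for *vit-1*, 23.1% for *vit-3* and 21.5% for *vit-4*. For each of them the two-sided exact permutation test between mean levels gave p = 0.1, which is as small as a design of 3 libraries against 3 can give. Of all 16596 genes tested, 7.48% were lower in *vhl-1* mutants without overlap.

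The other *vit* genes overlapped between the genotypes, in each case because of the first *vhl-1* library. *vit-5* had 425, 67.8 and 157 CPM in *vhl-1* mutants, against 1449, 430 and 306 CPM in wild type animals. *vit-2*, which encodes an abundant form of the large yolk protein, had 2163, 250.3 and 1073 CPM in *vhl-1* mutants, against 5786, 1875 and 1516 CPM in wild type animals. *vit-6* had 3293, 350.04 and 1760 CPM in *vhl-1* mutants, against 8200, 2735 and 2446 CPM in wild type animals. In *vit-5* the first *vhl-1* library passed the third wild type library alone, and in *vit-2* and *vit-6* it passed the second and the third. Means stood at 29.7% of wild type for *vit-5*, 37.99% for *vit-2* and 40.4% for *vit-6*, and the exact permutation p was between 0.2 and 0.3 for these 3 genes.

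edgeR's quasi-likelihood test with Benjamini-Hochberg adjustment over 16596 genes called none of the 10 members at an adjusted p under 0.05, where it called 1.25% of all genes. *vit-4* had the lowest log2 fold change of the members, -2.22 (standard error 0.79, 95% interval -4.10 to -0.33, edgeR adjusted p = 0.40). *vit-3* had -2.12 (standard error 0.67, edgeR adjusted p = 0.31) and *vit-1* had -1.77 (standard error 0.59, edgeR adjusted p = 0.35). *vit-5*, *vit-2* and *vit-6* had -1.75, -1.40 and -1.31, with 95% intervals that all reached above 0. The median over the 6 *vit* genes was -1.76, beside 0.0059 over all genes tested. Before adjustment, *vit-1*, *vit-3* and *vit-4* had edgeR p-values of 0.021, 0.017 and 0.028, and 4.77% of all genes had an unadjusted p under 0.05 with a lower level in *vhl-1* mutants. DESeq2 called *vit-1* alone (log2 fold change -1.77, adjusted p = 0.024), where it called 3.45% of all genes, and edgeR's likelihood ratio test called *vit-3* alone (log2 fold change -2.12, adjusted p = 0.040), where it called 3.46%. Without the first wild type library the median over the *vit* genes was -0.89, and without the first *vhl-1* library it was -2.51. Without the first wild type library and the second *vhl-1* library together, it was -0.53. When the counts of *vit-3* and *vit-4* were added together as 1 gene, the log2 fold change was -2.16 (edgeR adjusted p = 0.35), and with *vit-5* added as well it was -1.90 (edgeR adjusted p = 0.52). The counts of all 6 added together gave -1.43 (edgeR adjusted p = 0.74).

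**Figure D2:**
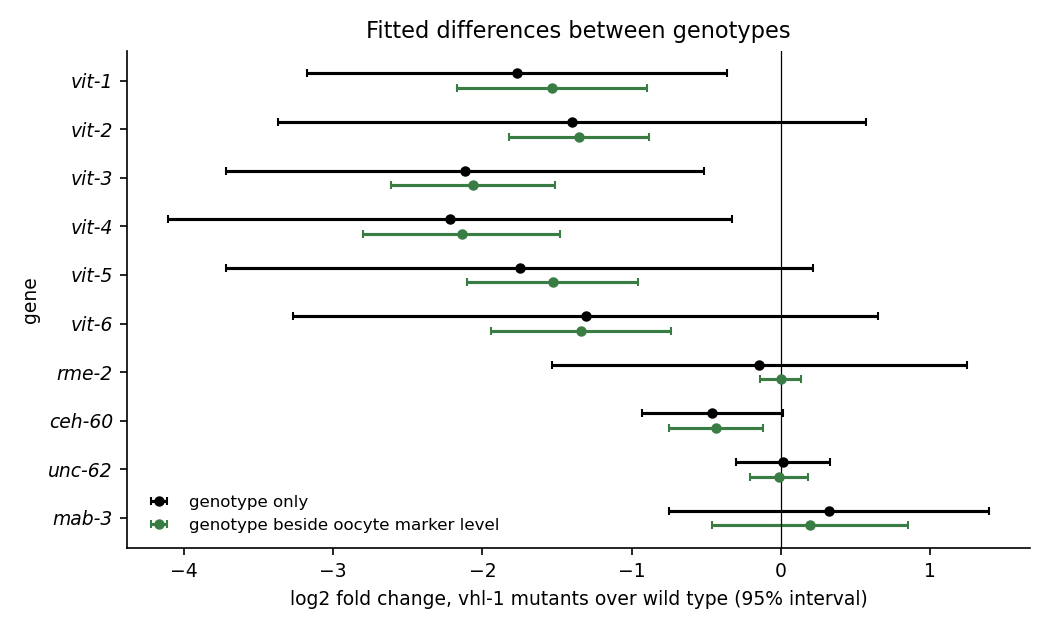
Fitted log2 fold change of each gene, *vhl-1* mutants over wild type animals, with its 95% interval, from edgeR with genotype alone (black) and with the level of oocyte markers as a covariate (green). The black intervals of *vit-1*, *vit-3* and *vit-4* end below 0, and the green intervals of all 6 *vit* genes and of *ceh-60* do.

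The *vit* genes were among the most variable genes of the data within a genotype. The standard deviation of log2 CPM around the genotype means lay between 0.87 for *vit-1* and 1.36 for *vit-6*, against a median of 0.24 over all genes tested, which put the 6 genes between the 95.6th and the 99.0th percentile. They varied together. The first wild type library was the highest, the second *vhl-1* library the lowest and the third *vhl-1* library the next lowest for each of the 6 genes. Over the 6 libraries, the log2 CPM of each *vit* gene had a Pearson correlation of between 0.97 and 0.99 with the mean of the other 5, a description over libraries that the genes share and that differ in genotype. By the same measure, among 8816 genes outside the family with a mean of at least 10 CPM, *prde-1* (0.988), *gpdh-1* (0.986), *rpn-1* (0.985), *pdtf-1* (0.984) and *act-2* (0.984) were the most like the mean of the *vit* genes. Of these 5, only *gpdh-1*, which encodes a glycerol-3-phosphate dehydrogenase, shared the width of the pattern. It had 15.7, 3.16 and 6.35 CPM in *vhl-1* mutants, against 43.7, 12.2 and 15.99 CPM in wild type animals, while *rpn-1*, which encodes a subunit of the proteasome, stayed between 350.002 and 414 CPM over the 6 libraries.

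**Figure D3:**
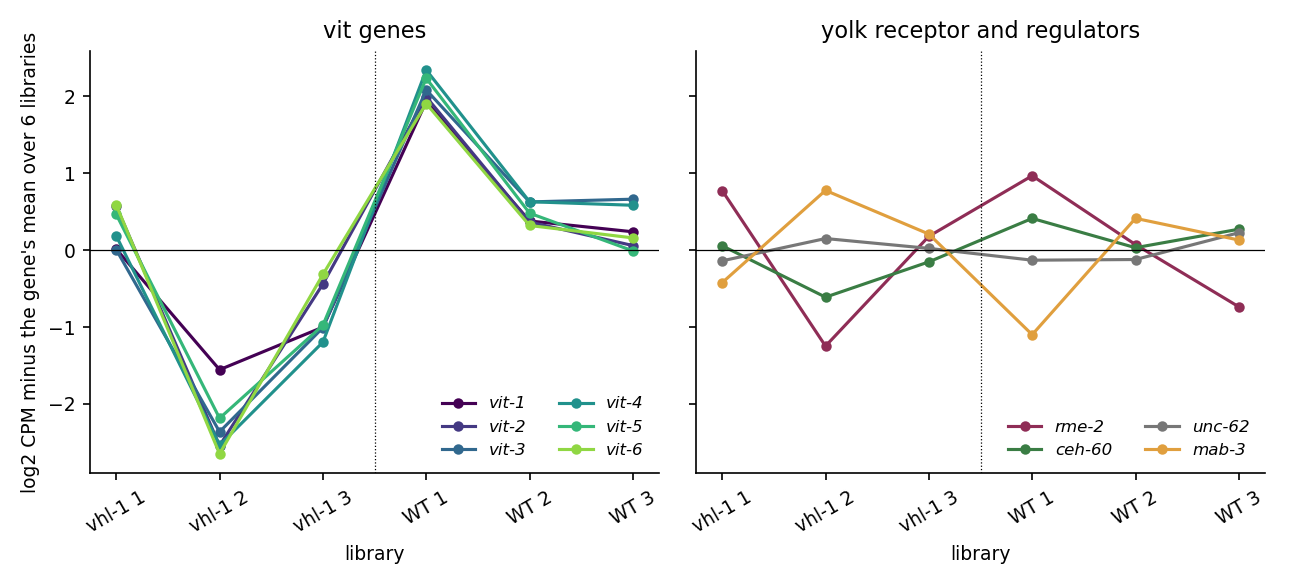
Log2 CPM of each gene minus its own mean over the 6 libraries, by library, *vhl-1* mutants left of wild type animals (WT). The 6 *vit* lines run together through a peak in the first wild type library and a trough in the second *vhl-1* library. *rme-2* shares this peak and trough with a smaller range but departs from the *vit* lines in the third library of each genotype. *mab-3* has its trough and peak in these libraries reversed, and *unc-62* stays near 0.

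Within the family the order of levels was close to fixed. Per kilobase of exon, *vit-6* had 356 ± 291 CPM in *vhl-1* mutants and 881 ± 640.1 CPM in wild type animals (SD, n = 3 each), and *vit-2* had 236 ± 194 CPM per kilobase in *vhl-1* mutants and 619.97 ± 479.99 in wild type animals. *vit-5* and *vit-1* followed, with 44.5 and 33.1 CPM per kilobase in *vhl-1* mutants and 149.6 and 112 in wild type animals, and *vit-3* and *vit-4* came last, with 13.04 and 8.51 in *vhl-1* mutants and 56.6 and 39.5 in wild type animals. The level per kilobase of *vit-6* was between 1.36 and 1.598 times that of *vit-2* in the 6 libraries, and that of *vit-3* was between 1.32 and 1.80 times that of *vit-4*, so that both steps had the same direction in all 6. *vit-5* and *vit-1* could not be put in order, since their ratio ran from 0.763 in the second *vhl-1* library to 1.61 in the first.

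As a share of the reads of all 6 *vit* genes, *vit-2* and *vit-6* together held 85.9%, 75.5% and 88.1% in *vhl-1* mutants, against 80.7%, 81.1% and 81.2% in wild type animals. This share was nearly the same in the wild type libraries although their summed level differed 3.55-fold, while smaller shares moved, with *vit-5* at 8.37%, 7.57% and 6.28% and *vit-3* at 2.78%, 3.09% and 3.68% in wild type animals. *vit-4* held 1.29%, 1.56% and 0.980% of the *vit* reads in *vhl-1* mutants, against 2.11%, 1.96% and 2.22% in wild type animals, without overlap (two-sided exact permutation test, p = 0.1, the smallest possible). *vit-1* held 4.33%, 11.7% and 4.24% in *vhl-1* mutants, against 6.004%, 6.24% and 6.60% in wild type animals. Its large share in the second *vhl-1* library came with the lowest *vit-1* level of all libraries, because each of the other 5 genes lay further below its own mean there.

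**Figure D4:**
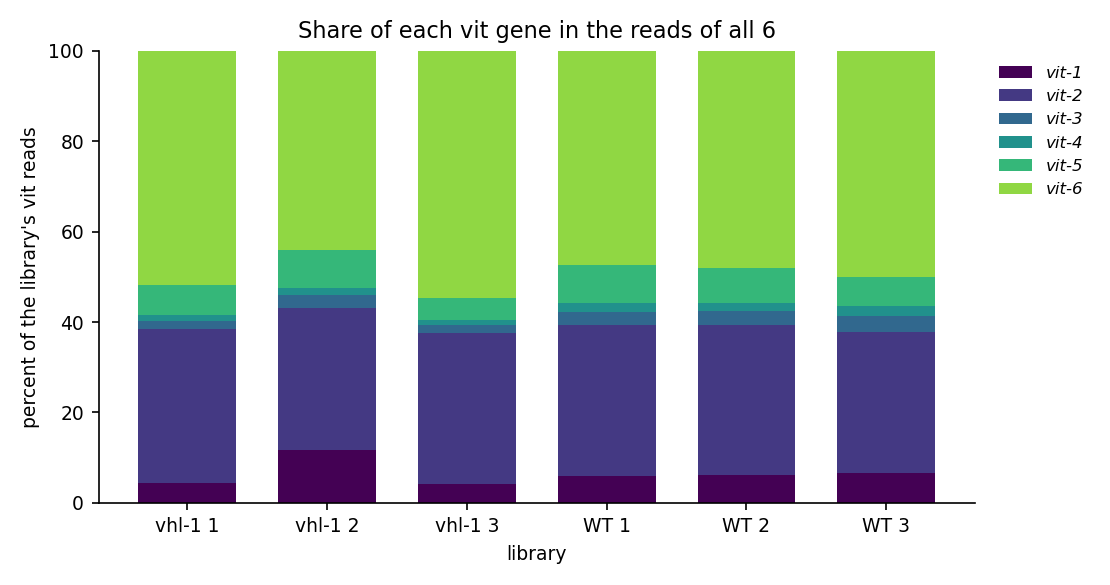
Percent of each library's *vit* reads that fell on each of the 6 *vit* genes, *vhl-1* mutants left of wild type animals (WT). *vit-6* and *vit-2* make up most of every bar, and the *vit-1* segment reaches 11.7% in the second *vhl-1* library, against between 4.24% and 6.60% in the other 5.

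The yolk receptor gene had similar mean levels in the 2 genotypes, with a wide spread around both. *rme-2* had 231, 57.0 and 153 CPM in *vhl-1* mutants, against 264, 142 and 81.2 CPM in wild type animals. The genotypes overlapped throughout, and the mean of *vhl-1* mutants stood at 90.5% of wild type. Its log2 fold change was -0.14 (standard error 0.58, 95% interval -1.54 to 1.25, edgeR adjusted p = 1.00), so that a change of more than 2-fold in either direction lay within the interval. The interval also held the log2 fold changes of *vit-2* (-1.40) and *vit-6* (-1.31), and *rme-2* was not tested against the *vit* genes. The value of *rme-2* was 0.40 without the first wild type library and 0.24 without the second *vhl-1* library. Like the *vit* genes, *rme-2* varied widely within a genotype, with a standard deviation of 0.95 on the log2 scale.

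Oocytes express *rme-2*, and its level was set beside 16 other genes of oocytes and the eggshell, such as *oma-1*, *oma-2*, *cpg-1*, *puf-5* and *chs-1*. The list did not hold *rme-2*. The summed level of these 16 markers was 2870, 726 and 1884 CPM in *vhl-1* mutants and 3288, 1683 and 1038 CPM in wild type animals, the same order of the 6 libraries as that of *rme-2*. *rme-2* equalled 8.06%, 7.86% and 8.14% of the marker sum in *vhl-1* mutants, against 8.04%, 8.45% and 7.82% in wild type animals. The 4.64-fold range of *rme-2* over the 6 libraries thus narrowed to 1.08-fold once it was given relative to other oocyte transcripts. In RNA from whole animals, fewer oocytes and less RNA per oocyte cannot be told apart. For the intestine, its share of the animal's RNA and the level within its cells cannot be told apart either.

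The *vit* genes, made in the intestine, did not keep such a fixed relation to the oocyte markers. Their summed level equalled 221%, 109.6% and 171% of the oocyte marker sum in *vhl-1* mutants, against 527%, 338% and 470.05% in wild type animals, without overlap between the genotypes. Each of the 6 genes was lower without overlap on this scale, on which 0.651% of all genes tested were, and *vit-1*, *vit-3* and *vit-4* had been so before the division. The marker sum itself ranged 4.53-fold, so dividing by it spreads steady genes, such as *unc-62* from a 1.29-fold to a 5.51-fold range. The share of 0.651% is therefore low by construction and cannot be set against the 7.48% found before the division. *vit-6* equalled 114.8%, 48.2% and 93.4% of the marker sum in *vhl-1* mutants, against 249%, 163% and 236% in wild type animals, and *vit-3* equalled 3.98%, 3.05% and 3.00% in *vhl-1* mutants, against 14.6%, 10.4% and 17.3% in wild type animals. Relative to the intestinal markers, from the tissue that makes yolk, the genotypes did overlap. The summed *vit* level equalled 79.3%, 8.74% and 37.9% of the intestinal marker sum in *vhl-1* mutants, against 214%, 67.01% and 49.4% in wild type animals. On that scale *vit-3* and *vit-4* were lower without overlap, as were 5.95% of all genes tested, while *vit-1*, *vit-2*, *vit-5* and *vit-6* overlapped. Both denominators were chosen after the data were seen, so these separations are a description.

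**Figure D5:**
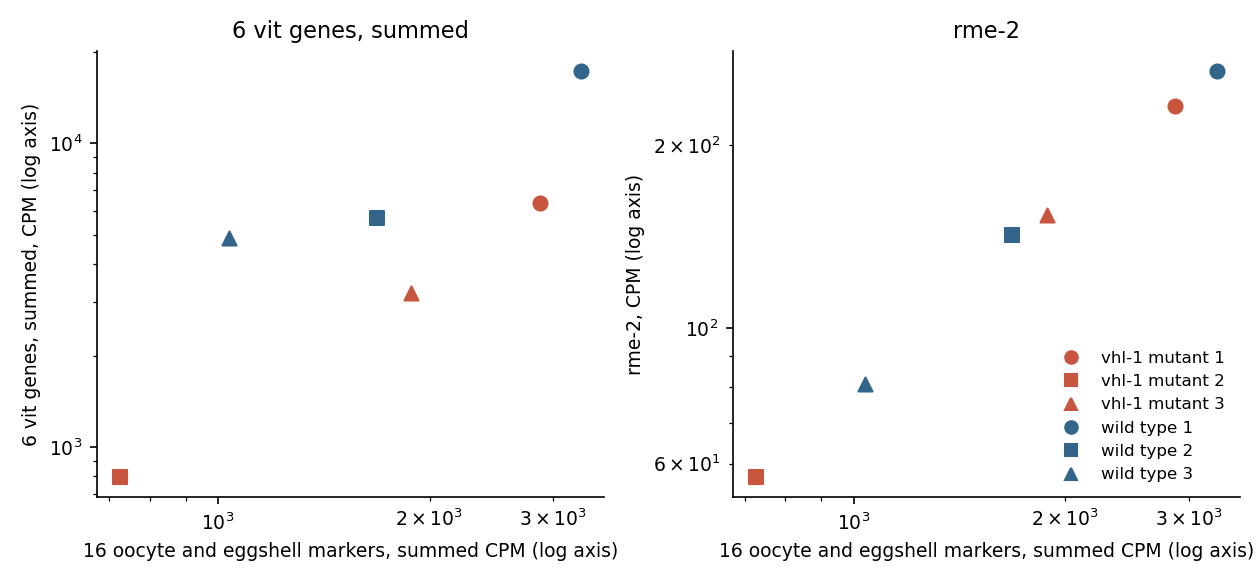
Summed CPM of the 6 *vit* genes (left) and CPM of *rme-2* (right) against the summed CPM of 16 oocyte and eggshell markers, 1 point per library, log axes, *vhl-1* mutants in red and wild type animals in blue. The *rme-2* points of both genotypes follow 1 line, whereas the *vit* points of *vhl-1* mutants lie below those of wild type animals at a similar marker level.

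With the mean log2 CPM of the oocyte markers as a covariate beside genotype, also chosen after the data were seen, edgeR's quasi-likelihood test called 5 of the 10 members, all lower in *vhl-1* mutants, where it called 1.53% of all genes in that direction. The 5 were *vit-3* (log2 fold change -2.06, 95% interval -2.61 to -1.51, edgeR adjusted p = 0.013), *vit-4* (-2.14, edgeR adjusted p = 0.021), *vit-2* (-1.35, edgeR adjusted p = 0.029), *vit-5* (-1.53, edgeR adjusted p = 0.035) and *vit-1* (-1.53, edgeR adjusted p = 0.046). *vit-6* had -1.34 (edgeR adjusted p = 0.056). The log2 fold change of *rme-2* in the same fit was -0.00019 (95% interval -0.14 to 0.14). *rme-2* is itself an oocyte transcript that followed these markers closely, so the covariate takes up its variation. A value near 0 therefore cannot show whether its level differs between genotypes. The fit has 6 libraries for 3 coefficients, and its calls depended on single libraries. With each library left out in turn, between 0 and 3 members were called, with none called without the first or without the third *vhl-1* library, while the log2 fold changes of the 6 *vit* genes stayed between -2.42 and -0.96.

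Of the regulators, *ceh-60* came closest to the pattern of the *vit* genes. It had 20.1, 12.6 and 17.4 CPM in *vhl-1* mutants, against 25.7, 19.8 and 23.3 CPM in wild type animals. Only the first *vhl-1* library reached into the wild type range, just above the second wild type library. Its mean level was 16.7 ± 3.77 CPM in *vhl-1* mutants and 22.9 ± 3.00 CPM in wild type animals (SD, n = 3 each). The log2 fold change of *ceh-60* was -0.46 (standard error 0.20, 95% interval -0.93 to 0.02, edgeR adjusted p = 0.57). It stayed between -0.61 and -0.29 with any 1 library left out. With the oocyte covariate it was -0.43, with a 95% interval of -0.75 to -0.12, but it was not called (edgeR adjusted p = 0.18). Its correlation with the mean of the *vit* genes over the 6 libraries was 0.95, higher than that of 99.4% of all genes tested, while its own range over the libraries was 2.03-fold, against 21.8-fold for the summed *vit* level.

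*unc-62* had 62.9, 76.9 and 70.4 CPM in *vhl-1* mutants, against 63.3, 63.6 and 81.0 CPM in wild type animals. The genotypes overlapped, and the means were 70.04 ± 6.999 CPM in *vhl-1* mutants and 69.3 ± 10.1 CPM in wild type animals (SD, n = 3 each). Its log2 fold change of 0.02 had a 95% interval from -0.30 to 0.33 (edgeR adjusted p = 1.00). Counts per gene do not separate its 18 transcripts, so a shift between the intestinal and other isoforms would not show here.

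*mab-3* had 6.58, 15.1 and 10.2 CPM in *vhl-1* mutants, against 4.11, 11.8 and 9.67 CPM in wild type animals. Its order ran against that of the *vit* genes at both ends, with the highest level in the second *vhl-1* library, where all 6 *vit* genes were lowest, and the lowest level in the first wild type library, where they were highest. The genotypes overlapped, with a log2 fold change of 0.32 (standard error 0.45, 95% interval -0.75 to 1.39, edgeR adjusted p = 0.98) that changed sign to -0.01 without the first wild type library and to -0.02 without the second *vhl-1* library. Per kilobase of exon, *mab-3* had the lowest level of the 10 genes, 5.68 CPM in *vhl-1* mutants and 4.55 CPM in wild type animals.

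Other genes tied to yolk did not pass the test between genotypes. Of 13 further regulators of yolk genes or their partners (*elt-2*, *pqm-1*, *lin-29*, *rict-1*, *sgk-1*, *daf-2*, *daf-16*, *lrp-2*, *tra-1*, *dmd-3*, *ceh-20*, *ceh-40* and *psa-3*), 0 were higher and 0 were lower at an adjusted p under 0.05, 0 had an unadjusted edgeR p under 0.05, 0 were called by DESeq2 or by edgeR's likelihood ratio test, and the median log2 fold change was -0.0085. *elt-2*, the gene of the GATA factor that drives intestinal transcription, had 32.0, 32.5 and 31.3 CPM in *vhl-1* mutants, against 34.02, 30.7 and 40.5 CPM in wild type animals. Of 15 genes of lipoprotein assembly, endocytosis and *rme-2* translation, such as *dsc-4*, *chc-1*, *rab-5* and *gld-1*, 0 passed the edgeR test in either direction and 0 were called by DESeq2 or the likelihood ratio test, with a median log2 fold change of -0.08. In this list 2 of 15 genes had an unadjusted edgeR p under 0.05, *rme-1* and *rme-4*, named after their values were seen. Both were lower in *vhl-1* mutants, as were 4.77% of all genes tested at that unadjusted p. *rme-1*, which acts in endocytic recycling, had 333, 318 and 325 CPM in *vhl-1* mutants, against 392, 372 and 401 CPM in wild type animals (log2 fold change -0.26, standard error 0.08, edgeR adjusted p = 0.27). *rme-4* had 24.6, 24.5 and 23.1 CPM in *vhl-1* mutants, against 28.8, 30.1 and 29.8 CPM in wild type animals (log2 fold change -0.30, standard error 0.09, edgeR adjusted p = 0.27). Both genes were lower without overlap, as were 7.48% of all genes tested. Unlike the *vit* genes and *rme-2*, they hardly varied within a genotype.

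Levels of markers of tissue and stage are given beside these results. Apart from the fit with the oocyte covariate, which was chosen after the data were seen, their part in the results was not tested. The 11 intestinal markers found, such as *asp-1*, *act-5* and *vha-6*, summed to between 8017 and 9099 CPM in *vhl-1* mutants and between 8086 and 9882 CPM in wild type animals, and 0 of 11 passed the edgeR test, DESeq2 or the likelihood ratio test. Their highest sum was 1.23 times their lowest, against 21.8 times for the *vit* genes, and the second *vhl-1* library, lowest in yolk transcripts, held 9099 CPM. Before adjustment, *elt-7*, named after its values were seen, had an edgeR p of 0.026, with 8.32, 7.26 and 8.49 CPM in *vhl-1* mutants, against 10.5, 9.56 and 12.6 CPM in wild type animals. The 18 sperm markers summed to between 358 and 775 CPM in *vhl-1* mutants and between 454 and 771 CPM in wild type animals, and the 8 germline markers to between 1383 and 1722 CPM in *vhl-1* mutants and between 1527 and 1911 CPM in wild type animals. Some cuticle markers, named here after their values were seen, moved with the *vit* genes. The sum of the 6 adult cuticle markers was lowest in the second *vhl-1* library, with 1307 CPM, against between 1923 and 2583 CPM in the other 5 libraries, but its members did not move as one. The collagen gene *col-19* had 711, 31.4 and 315 CPM in *vhl-1* mutants, against 1201, 283 and 299 CPM in wild type animals. *col-7* had 26.5, 0.381 and 13.8 CPM in *vhl-1* mutants, against 59.003, 11.6 and 11.5 CPM in wild type animals. *col-62* had 24.1, 0.406 and 12.5 CPM in *vhl-1* mutants, against 51.7, 9.65 and 12.98 CPM in wild type animals. Like the *vit* genes, these 3 were highest in the first wild type library and lowest in the second *vhl-1* library, whereas *rol-6*, *bli-1* and *bli-2* were lowest in the first wild type library, with 211, 336 and 285 CPM. The sum of the 11 larval cuticle and molting markers was lowest in the first wild type library, with 2291 CPM, against between 4019 and 4996 CPM in the other 5, although *col-12* and *col-13* were highest there, with 293 and 91.4 CPM. Of the oocyte, sperm, germline, cuticle, muscle and neuron markers, 0 passed the edgeR test, DESeq2 or the likelihood ratio test, and 0 had an unadjusted edgeR p under 0.05. Each listed gene had reads in at least 1 library.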

How the data were processed

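Per the labels and the methods, the authors sequenced single ends of 50 bp, trimmed with Trim Galore 0.4.3.1, aligned with STAR 2.6.0b, counted reads per gene with featureCounts 1.6.3 and deposited the raw counts of each library. The genome build, annotation release, strand setting and treatment of reads that fit several genes are not given in the sources used here. Symbols, positions and exon lengths were looked up by gene identifier in Ensembl release 115 (WBcel235). The blank row that ends each set of counts named no gene and was left out. Libraries held between 52462303 and 82910026 reads on genes, so that 1 read was worth between 0.0119 and 0.0201 CPM.

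Counts were analysed in R 4.3.3 with edgeR 4.0.16 (filterByExpr filter, TMM scaling over the genes kept, quasi-likelihood test on genotype, Benjamini-Hochberg adjustment over 16596 genes, threshold 0.05). All 10 members passed the filter. Standard errors and 95% intervals follow from the fold change, its F statistic and edgeR's total degrees of freedom, residual and prior together. DESeq2 1.42.0, edgeR's likelihood ratio test, other scalings and filters, added counts of related *vit* genes, a replicate block and fits without single libraries were the alternatives. The oocyte covariate, the levels relative to marker sums and the fits without pairs of libraries were added after the data were seen. The tests were also run on simulated counts, with an outcome that is not reported here. Members and gene lists were chosen with earlier results of these data known. The text names all members, the 5 genes most correlated with the *vit* mean, and list genes past the threshold, of which there were 0. List genes given with values (*elt-2*, *dmd-3*, *ceh-40*, *elt-7*, *rme-1*, *rme-4* and cuticle genes) were named after their values were seen. Replicates of a genotype differed by far more than sampling noise (chi-square per gene of at least 45.8, where noise gives about 1). Planned sequence comparisons were not run. Of 12 intestinal markers listed, *opt-2* was not matched by symbol.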

Additional observations from a re-analysis of the deposited data

How the results depend on the processing

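Of 190 log2 fold changes of the members under the alternatives, 165 kept their sign and their side of the threshold, 14 kept their sign and passed the threshold, and 11 changed sign. The 6 *vit* genes and *ceh-60* stayed below 0 in every fit that was run. With TMM scaling replaced or computed without the *vit* genes, or with other filters, 0 members passed. The same count was found when any single library was dropped.

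The number of members past the threshold was 0 with genotype alone in edgeR's quasi-likelihood test. It was 1 with DESeq2 (*vit-1*, -1.77), 1 with the likelihood ratio test (*vit-3*, -2.12) and 5 with the oocyte covariate (*vit-1* -1.53, *vit-2* -1.35, *vit-3* -2.06, *vit-4* -2.14 and *vit-5* -1.53), which became 3 without *vhl-1* mutant 2 or without wild type 3, 2 without wild type 1 or without wild type 2, and 0 without *vhl-1* mutant 1 or *vhl-1* mutant 3. Over all genes, the 207 past the threshold became 653 with DESeq2, 575 with the likelihood ratio test, 524 with the oocyte covariate, 65 at an adjusted p under 0.01, between 49 and 161 when single libraries were dropped (at most 114 for any library but wild type 1), 124 without both libraries numbered 1 and 385 without the first wild type and the second *vhl-1* library. The cause was not tested.

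Same-numbered libraries deviated together for the first and second numbers (correlation 0.55 and 0.44). The third gave -0.016, and *vhl-1* mutant 3 correlated best with wild type 1 (0.106). Deviations from a genotype mean cancel out within that genotype, so the values of the third libraries follow from the other pairs. They cannot show whether the libraries were paired. The methods do not use the replicate number, so it was not taken as a pairing. A replicate block gave 354 genes with edgeR and 909 with DESeq2. Under the block, edgeR called 3 members (*vit-1* -1.70, *vit-3* -2.24, *vit-4* -2.36), with edgeR adjusted p-values of 0.012, 0.018 and 0.018. DESeq2 called 4 (*vit-1* -1.71, *vit-3* -2.25, *vit-4* -2.37, *vit-5* -1.81), with DESeq2 adjusted p-values of 1.4e-15, 1.4e-15, 4.2e-16 and 1.2e-07.

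The ratio of the mean summed *vit* CPM, *vhl-1* mutants over wild type, was 0.372 and lay between 0.371 and 0.379 under other scalings and between 0.216 (without *vhl-1* mutant 1) and 0.654 (without wild type 1) when single libraries were dropped. It was 0.380 without both libraries numbered 1 and 0.906 without the first wild type and the second *vhl-1* library. Without these 2 libraries *rme-2* had a log2 fold change of 0.78, *unc-62* of -0.12 and *mab-3* of -0.36. When single libraries were dropped, *rme-2* lay between -0.63 and 0.40, *unc-62* between -0.056 and 0.14 and *mab-3* between -0.019 and 0.61, and with the oocyte covariate *unc-62* was -0.014. Depth limited the members little, since the lowest count of any member in any library was 323 reads (*mab-3*, wild type 1).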
